A study of Mus musculus with 123 samples.

Results

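The lung at 72 h after allergen challenge was compared between sensitized and naive mice, using 16 of the 123 arrays of the series: 8 from mice sensitized to ovalbumin (OVA, an egg protein used as a model allergen) and 8 from naive mice. All mice were BALB/c, each array held total RNA from the lung of 1 animal, and age and sex were not given. The design describes both arms as challenged with OVA, while the sample titles of the naive arm carry PBS (saline), so what the naive mice inhaled was not settled by the sources. All 13053 genes with a named probe set on the array were described, each by its probe set with the highest mean over the series. Values are log2 intensities (a step of 1 doubles the signal), and "rose" and "fell" are used only of genes with a Benjamini-Hochberg adjusted p under 0.05 in the limma fit over all genes. The lung label was borne out by its markers: Sftpc, the surfactant protein of alveolar type II cells, lay between 14.38 and 14.50 in all 16 mice, Scgb1a1, the secretoglobin of club cells, between 14.49 and 14.64, and Ager, a receptor of alveolar type I cells, between 14.02 and 14.31.

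In allergic airway disease, T helper 2 cells and innate lymphoid cells release IL-4, IL-5 and IL-13 in response to inhaled antigen. IL-13 acts on the airway epithelium, where secretory cells become mucus-filled goblet cells, IL-5 supports eosinophils, and IL-4 and IL-13 act through the transcription factor STAT6 on macrophages, B cells and stroma. The OVA model in BALB/c mice is used to study these events because the strain readily mounts a type 2 response. In whole lung, a gene is higher when more cells make its RNA or when each cell makes more of it, and these possibilities cannot be told apart here.

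The medians of the 16 arrays lay between 9.32 and 9.43, and no pair of arrays held the same values. 3 mice stood apart and are named where a result rests on them. Sensitized mouse 5 had a median correlation of 0.98 with its group and was often nearest to the naive mice: of the genes that rose, it was the lowest of the 8 sensitized mice in 48.3%, and of those that fell it was the highest in 39.7%. Naive mice 3 and 7 had the lowest naive levels of the airway secretoglobin Scgb3a1, at 11.50 and 10.61 against 13.22 to 13.85 in the other 6, while Scgb1a1, the main club cell secretoglobin, was 14.58 and 14.60 against 14.59 to 14.64. They also had lower mean levels of 12 heart muscle genes, at 9.75 and 10.06 against 11.33 to 12.23. The sensitized mice lay between 10.23 and 11.55 in the same heart genes, none of which was called. Naive mouse 3 also had the highest naive level of Adgre1, the macrophage and eosinophil antigen F4/80, at 12.53 against 9.95 to 10.51. As signs of RNA quality, the log2 ratio of 3' to 5' control signal was 1.10 ± 0.05 in naive and 1.05 ± 0.12 in sensitized mice for actin (SD, n = 8 each, two-sided exact permutation p = 0.239), but 2.14 ± 0.23 and 2.80 ± 0.16 for pyruvate carboxylase (p = 0.000466, exact permutation). The part of these differences in the results was not tested.

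Differences between the arms were widespread at 72 h. Of the 13053 genes, 6335 (48.5%) passed the threshold, 2901 higher (22.2%) and 3434 lower (26.3%) in sensitized lung. With each array centred on its median the split was 2479 higher and 4131 lower, and the median over all genes -0.05. The large differences were nearly all upward: 347 genes rose by at least 1 on the log2 scale (2.66%) and 32 fell by as much (0.245%). In 903 genes (6.92%) all 8 sensitized mice lay above every naive mouse, and in 1066 (8.17%) all 8 lay below. The median difference over all genes was -0.02 and the median absolute difference 0.15, so the lowered genes were many and mostly shifted little. Such breadth was not confined to 72 h. The same contrast called 3457 genes at 0 h, 4579 at 48 h and 5483 at 96 h, with 7 naive mice at 48 and at 96 h.

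**Figure D1:**
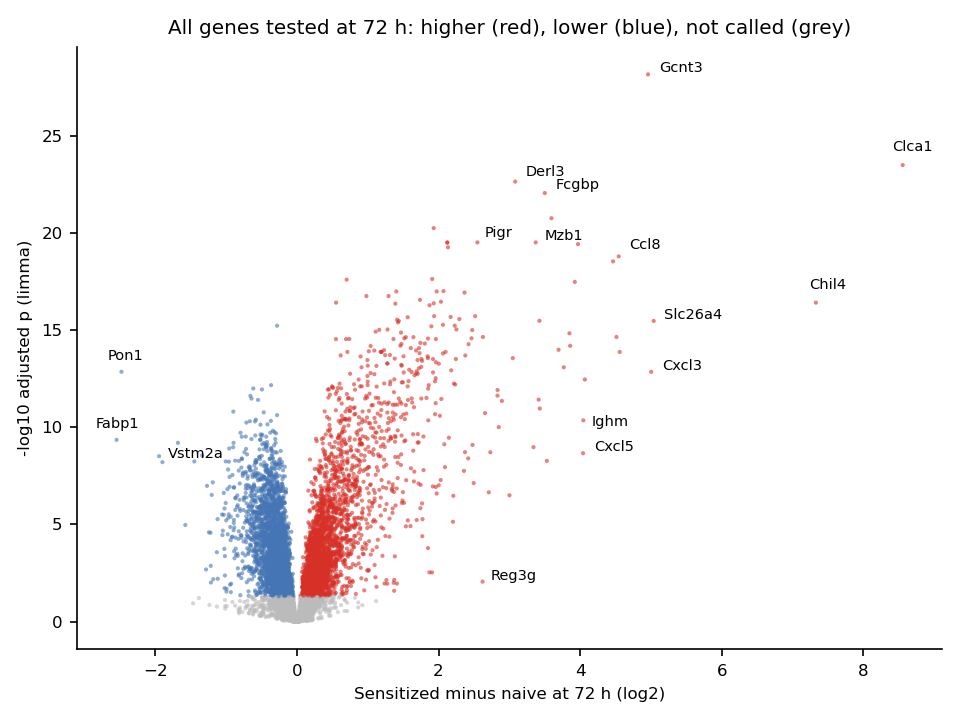
Difference between sensitized and naive lung at 72 h (x axis, log2, mean of 8 sensitized minus mean of 8 naive mice) against the evidence for it (y axis, minus log10 of the adjusted p) for 13053 genes, each a point and coloured when past the threshold. Clca1 lies farthest right at 8.56 and Fabp1 farthest left at -2.55, and the right side reaches much farther than the left.

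Genes of mucus-producing goblet cells made up the front of the higher genes. Of 19 goblet cell and mucus genes measured, 18 rose (94.7%) and none fell, beside 22.2% higher and 26.3% lower among all genes. These shares of all genes stand beside every list count below. The lists were chosen with earlier results of these data known, so the comparison is a description and not a test. The median difference was 2.90 against -0.02 over all genes. In 17 of the 19 all sensitized mice lay above every naive mouse, against 6.92% of all genes. The member not called was Fut2, a fucosyltransferase, with a difference of 0.18 ± 0.12 (SE, n = 8 and 8, adjusted p = 0.191 by limma).

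Clca1, a secreted protein that organizes mucus, ranged from 4.86 to 6.64 in naive mice, with a median of 5.47, and from 14.04 to 14.34 in sensitized mice, with a median of 14.18. The groups were far apart, by 8.56 ± 0.58 (SE) or 376-fold (adjusted p = 3.27e-24), and the sensitized mice lay within 0.30 of each other near the top of the array's range, where the highest value in the table was 15.43. Muc5ac, the gel-forming mucin induced in allergic airways, had a naive range of 6.87 to 7.58 (median 7.04) and a sensitized range of 10.67 to 11.69 (median 11.03), a rise of 3.97 ± 0.31 (SE, adjusted p = 3.82e-20) with no overlap. Muc5b, the mucin already made in healthy airways, ranged from 8.01 to 11.26 in naive mice and from 11.94 to 12.92 in sensitized mice. The groups did not overlap, but the 2 lowest naive values, 8.94 and 8.01, came from naive mice 3 and 7, the same pair with little Scgb3a1 RNA. Muc5b rose by 2.66 ± 0.32 (SE, adjusted p = 1.87e-11).

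The ion and glycan machinery of mucus rose with the mucins. Slc26a4 (pendrin, an anion exchanger) went from a naive median of 8.60 (7.61 to 9.07) to a sensitized median of 13.64 (12.21 to 13.81), a difference of 5.04 ± 0.47 (SE). Gcnt3, a glycosyltransferase that branches mucin glycans, went from 4.81 (4.44 to 5.19) to 9.71 (9.11 to 10.92), with a difference of 4.96 ± 0.29 (SE) that carried the smallest adjusted p in the goblet list, 7.08e-29. The other large members were Fxyd4 (4.56), Scin (4.47), Capn9 (3.93), Fcgbp (3.5), Agr2 (3.43) and Tff2 (2.90). The transcription factors Foxa3 and Spdef, both drivers of goblet cell fate, rose by 1.76 ± 0.18 and 1.46 ± 0.17 (SE), with no overlap between groups for either. Sensitized mouse 5 was uneven in this list. Its Clca1 (14.19) and Muc5ac (11.02) lay near the group medians and its Muc5b (12.92) and Tff2 (12.24) were the highest of the 8, while its Slc26a4 (12.21) and Fxyd4 (9.37) were the lowest.

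Secreted epithelial genes outside the goblet list were measured as well. Retnlb, a resistin-like protein of goblet cells and 1 of the 20 genes with the largest rise, rose by 3.85 ± 0.37 (SE), from a naive range of 5.49 to 5.83 to a sensitized range of 8.11 to 10.60. Reg3g, a secreted antibacterial lectin, had 6 naive mice between 11.13 and 12.31 and naive mice 3 and 7 at 6.61 and 5.48, against 12.25 to 13.52 in sensitized mice. Its rise of 2.62 ± 0.87 (SE, adjusted p = 0.00868) was lost without naive mouse 7 (1.93, adjusted p = 0.0569), and without naive mice 3 and 7 and sensitized mouse 5 the difference was 1.15 (adjusted p = 0.299).

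**Figure D2:**
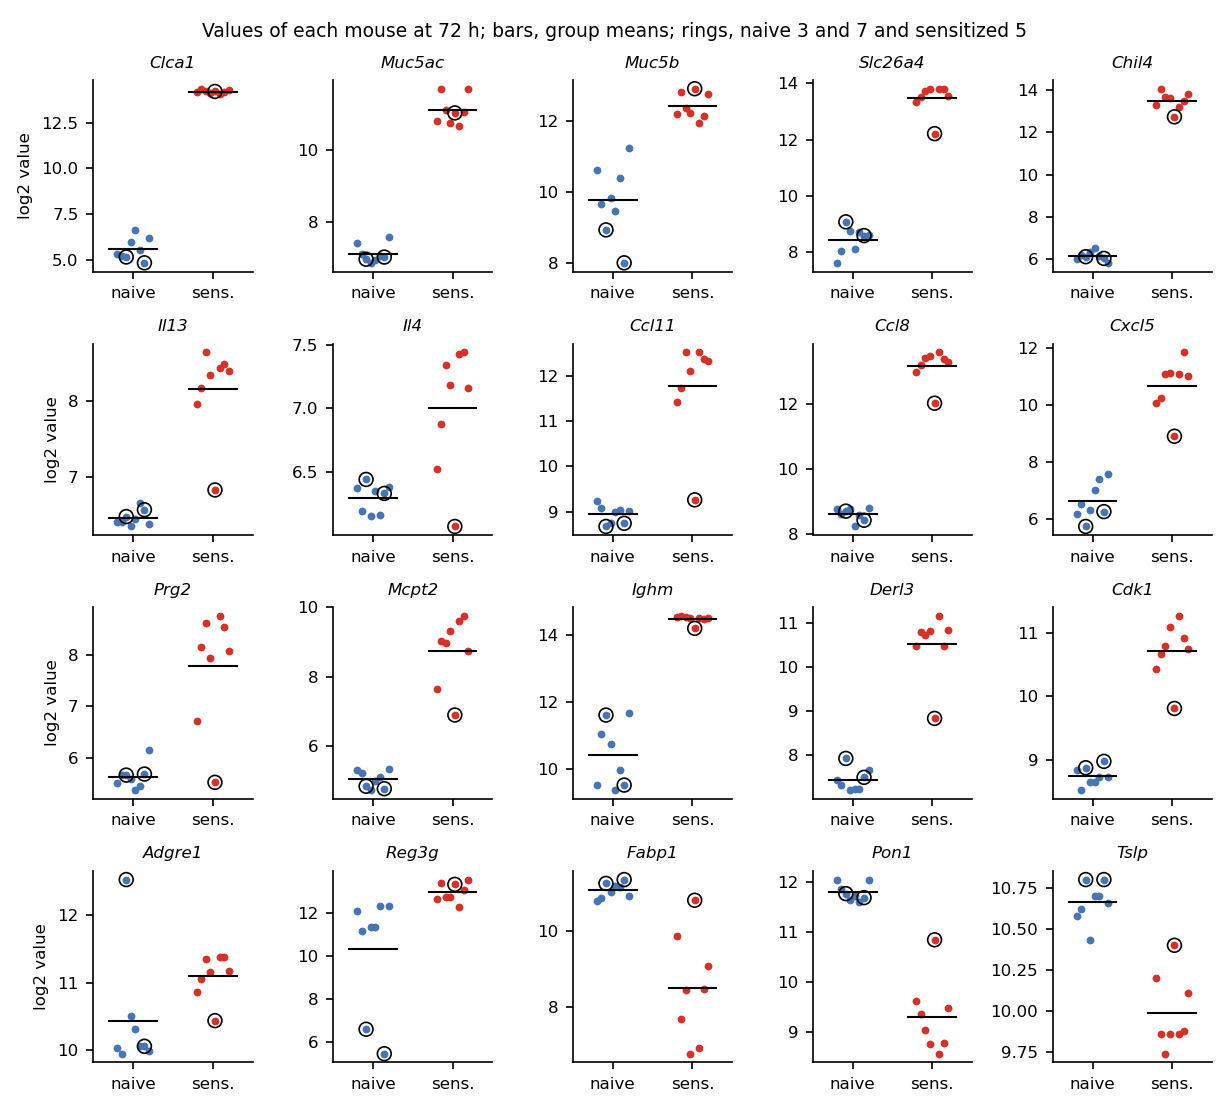
Log2 intensity (y axis) in each naive and sensitized mouse at 72 h for 20 genes, 1 panel a gene; points are mice, bars are group means and rings mark naive mice 3 and 7 and sensitized mouse 5. Clca1, Chil4 and Muc5ac separate fully, while in Prg2 and Fabp1 sensitized mouse 5 lies among the naive mice.

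Chitinases and chitinase-like proteins are made by airway epithelium and macrophages in type 2 inflammation. They rose in 5 of 7 members (71.4%, against 22.2% of all genes) and fell in none, with a median of 0.74. Chil4 (Ym2) had a naive median of 6.13 (5.82 to 6.52) and a sensitized median of 13.53 (12.73 to 14.06). The gap of 7.33 ± 0.66 (SE, adjusted p = 3.88e-17) was second only to that of Clca1 among all genes tested. Chia1, the acidic mammalian chitinase, rose by 1.91 ± 0.16 and Chil3 (Ym1) by 1.61 ± 0.16 (SE) from naive medians of 12.27 and 12.73. Chil3 and Chil4 have nearly identical sequences, so their probe sets may share signal. Chil1 and Chid1 rose by 0.50 and 0.74, with no overlap, whereas Chit1 (-0.01) and Ctbs (-0.07) were not called.

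Was the type 2 signal itself visible in whole lung RNA? Of 12 type 2 cytokines, alarmins and receptors, 7 rose (58.3%) and 1 fell (8.33%), with a median of 0.65. Il13, which drives goblet cell change, lay between 6.35 and 6.66 (median 6.43) in naive mice and between 6.83 and 8.64 (median 8.36) in sensitized mice, a rise of 1.69 ± 0.32 (SE, adjusted p = 5.88e-06) without overlap. Il5, the eosinophil growth factor, rose by 0.91 ± 0.29 (SE, adjusted p = 0.00583), from a naive range of 5.31 to 5.58 to a sensitized range of 5.63 to 6.95. In both cytokines sensitized mouse 5 was the lowest of its group.

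Il4, the B cell switch cytokine, did not pass. Its naive range was 6.15 to 6.44, and 7 of 8 sensitized mice lay above it, between 6.52 and 7.44, while sensitized mouse 5, at 6.07, lay below every naive mouse. The difference of 0.71 ± 0.37 (SE, adjusted p = 0.104) passed when only the 16 arrays were fitted (adjusted p = 0.00175), a fit in which the spread of other times did not enter. Il13ra2, the decoy receptor induced by IL-13, rose by 1.49 ± 0.25 (SE), Il33, an epithelial alarmin, by 0.70 ± 0.15, and Il17rb, the IL-25 receptor subunit, by 0.59 ± 0.10. Tslp, the other epithelial alarmin on the list, was the 1 member that fell, from a naive range of 10.43 to 10.80 to a sensitized range of 9.75 to 10.40. All 8 sensitized mice lay below every naive mouse, by 0.67 ± 0.10 (SE, adjusted p = 1.03e-08) on average. Il4ra, the shared receptor chain, was not called (adjusted p = 0.997), with ranges of 10.92 to 11.24 in naive and 10.96 to 11.26 in sensitized mice. Il10 rose by 1.01 ± 0.29 (SE), although naive mouse 3, at 7.51, lay above all sensitized mice (5.73 to 6.89) and the other naive mice lay between 4.66 and 5.08.

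Macrophage genes known to respond to IL-4 and IL-13 rose in 14 of 14 measured members, with a median of 1.46, beside 22.2% of all genes. Clec10a, Retnla and Arg1, also on this list, were not analysed here. Some members are counted in other lists too, such as Ccl17 and Ccl22 among CC chemokine and dendritic cell genes and Alox15 among eosinophil genes. Cd209e, a C-type lectin, ranged from 4.64 to 5.20 in naive mice (median 4.91) and from 7.81 to 9.50 in sensitized mice (median 8.94). The groups did not overlap, and the rise was 4.07 ± 0.44 (SE, adjusted p = 3.51e-13). Ch25h, which makes 25-hydroxycholesterol, rose by 2.21 ± 0.37 and Ccl17, a chemokine for Th2 cells, by 1.97 ± 0.32 (SE). Pdcd1lg2 (PD-L2) ranged from 6.59 to 7.85 in naive and from 7.84 to 10.23 in sensitized mice, a rise of 2.03 ± 0.31 (SE) in which sensitized mouse 5, at 7.84, lay just under the highest naive mouse. Alox15, a lipoxygenase, overlapped more: 6 naive mice lay between 7.5 and 8.54, but naive mice 3 and 4 were at 9.96 and 10.81, inside the sensitized range of 8.59 to 11.40. It rose by 1.91 ± 0.56 (SE, adjusted p = 0.00292). Mrc1 (CD206), the mannose receptor, rose by 0.58 ± 0.09 (SE).

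STAT6 binds TTC and GAA separated by any 4 bases, a pattern searched on either strand and shared with other STAT proteins. RefSeq promoters (GRCm38.p6, 250 bases before to 50 after the start) were at hand for 11 of the 14 macrophage genes, and 3 held the letters (27.3%), against 8.01% of 27025 genes. These were Ccl17, Cd209e and Pdcd1lg2. Of 10 goblet cell genes with a promoter, 1 held them (10%; Capn9). A match is a description of letters and not evidence of binding. The 130 bases before the start are shown for the 2 genes whose match lay nearest the start, with the pattern in capitals.
Cd209e, chr8:3854287-3854416, minus strand: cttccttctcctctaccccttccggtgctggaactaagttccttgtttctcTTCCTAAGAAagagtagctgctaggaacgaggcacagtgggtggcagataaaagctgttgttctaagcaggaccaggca
Pdcd1lg2, chr19:29410789-29410918, plus strand: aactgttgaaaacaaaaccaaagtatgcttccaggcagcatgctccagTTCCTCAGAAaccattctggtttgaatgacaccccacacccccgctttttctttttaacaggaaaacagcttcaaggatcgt
The match ended 70 bases before the start in Cd209e and 73 bases before it in Pdcd1lg2.

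Chemokines that recruit eosinophils, monocytes and neutrophils rose broadly. Of 12 CC chemokines, 9 rose (75%) and none fell (median 1.64). Of 13 CXC chemokines, 10 rose (76.9%) and none fell (median 1.37), beside 22.2% higher among all genes. Ccl8 led the CC family, with a naive range of 8.24 to 8.82 (median 8.67) and a sensitized range of 12.02 to 13.58 (median 13.34), a rise of 4.55 ± 0.37 (SE, 23.4-fold, adjusted p = 1.63e-19). Ccl11 (eotaxin), which attracts eosinophils through the receptor CCR3, lay between 8.67 and 9.24 in naive mice. In 7 sensitized mice it lay between 11.43 and 12.53, and in sensitized mouse 5 at 9.26, just above the naive range. The rise was 2.85 ± 0.36 (SE, adjusted p = 9.83e-11). Ccl12, Ccl20 and Ccl22 rose by 2.42, 2.22 and 1.77, with no overlap between groups. Ccl24, the second eotaxin, rose by 1.38 ± 0.34 (SE) from a naive range of 7.43 to 8.4 to a sensitized range of 7.61 to 10.54. Ccl3, Ccl4 and Ccl5 were not called, at 0.46, 0.34 and -0.06.

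The largest CXC rises were those of Cxcl3 and Cxcl5, which attract neutrophils through the receptor CXCR2. Cxcl3 went from a naive median of 5.68 (5.08 to 6.05) to a sensitized median of 10.90 (9.0 to 11.44), a rise of 5.0 ± 0.54 (SE, adjusted p = 1.41e-13). Cxcl5 rose by 4.04 ± 0.56 and Cxcl1 by 2.36 ± 0.35 (SE), again with no overlap. The chemokines induced by interferon, Cxcl9, Cxcl10 and Cxcl11, rose by 3.0 ± 0.50, 1.85 ± 0.43 and 1.41 ± 0.48 (SE). A second probe set gave 0.92 for Cxcl9 and 0.33 for Cxcl11, so the size depends on the probe set. The members not called were Cxcl12 (-0.18, with other probe sets between 0.00 and 0.97), Cxcl14 (-0.01) and Cxcl15, the lung chemokine of alveolar epithelium (0.01).

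Were genes of the cells that these chemokines attract higher as well? Eosinophil genes rose in 6 of 7 members (85.7%) and fell in none, with a median of 1.16. In 1 of the 7 all sensitized mice lay above every naive mouse, beside 6.92% of all genes. Prg2, the eosinophil major basic protein, lay between 5.38 and 6.15 in naive mice and between 6.71 and 8.75 in 7 sensitized mice, with sensitized mouse 5 at 5.53 inside the naive range. The rise was 2.15 ± 0.28 (SE, adjusted p = 3.44e-10). Ccr3, the eotaxin receptor, ranged from 4.65 to 5.12 in naive and from 5.62 to 8.45 in sensitized mice (2.50 ± 0.39 SE), and Epx, eosinophil peroxidase, rose by 1.16 ± 0.19 (SE). Siglecf, which alveolar macrophages also make, was not called (0.07 ± 0.15 SE, adjusted p = 0.709). Adgre1 rose by 0.67 ± 0.17 (SE, adjusted p = 0.000733), but naive mouse 3 lay above all sensitized mice and the fit of the 16 arrays alone gave an adjusted p of 0.0708.

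Of 11 mast cell and basophil genes, 4 rose (36.4%) and 2 fell (18.2%), with a median of 0.18. That median was -0.13 when only genes with a mean of at least 8 were fitted. The proteases among them went both ways. Mcpt1 and Mcpt2, proteases of mucosal mast cells, rose by 2.83 ± 0.32 and 3.70 ± 0.37 (SE). Mcpt2 ranged from 4.74 to 5.36 in naive and from 6.90 to 9.75 in sensitized mice, with no overlap. The 2 genes are close copies, so their probe sets may share signal. Mcpt4, a protease of connective tissue mast cells, fell by 0.63 ± 0.18 (SE), with all 8 sensitized mice below every naive mouse. Tpsab1, a tryptase, rose by 0.71 ± 0.13 (SE), while Cpa3 (0.18) and Kit (-0.15) were not called.

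Neutrophil genes did not follow the CXC chemokines. Of 13 members, 2 rose (15.4%) and 1 fell (7.69%), beside 22.2% and 26.3% of all genes, and the median was -0.44. The 2 that rose, Lcn2 (1.04 ± 0.13 SE) and Ltf (1.37 ± 0.53 SE), encode antimicrobial proteins that airway epithelium also makes. Ltf was lost without naive mouse 3 (1.14, adjusted p = 0.0730) or naive mouse 7 (1.03, adjusted p = 0.106), and was 0.61 without both and sensitized mouse 5 (adjusted p = 0.389). Trem1 fell by 0.63 ± 0.20 (SE), a call that was lost with the mean over its probe sets (-0.4, adjusted p = 0.0511 by limma). S100a8 and Cxcr2, both abundant in neutrophils, had differences of -0.37 ± 0.24 and -0.62 ± 0.29 (SE, adjusted p = 0.190 and 0.0687) and overlapping groups, and Cxcr2 passed with the 16 arrays alone (0.0179).

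Acute inflammatory genes gave a mixed picture: of 21, 9 rose (42.9%) and 1 fell (4.76%), with a median of 0.47. Saa3, an acute phase protein of lung epithelium and macrophages, ranged from 10.15 to 12.75 in naive mice and from 12.79 to 13.92 in sensitized mice, a rise of 2.20 ± 0.42 (SE). Naive mice 3 and 4 were near the sensitized range at 12.75 and 12.57. Timp1, a metalloproteinase inhibitor, rose by 1.77 ± 0.33 and Ptx3, a long pentraxin, by 1.19 ± 0.24 (SE). The early cytokines were not called in the fit of all arrays: Tnf differed by 0.02 ± 0.13, Il1b by -0.21 ± 0.20 and Il6 by 1.12 ± 0.56 (SE, adjusted p = 0.926, 0.393 and 0.0874). Il6 passed when only the 16 arrays were fitted (adjusted p = 0.00126) and with array weights (0.0195).

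Genes of antibody-secreting cells rose as well. Of 18 plasma cell genes, 15 rose (83.3%) and 2 fell (11.1%), with a median of 1.72. The 15 include Pigr, an epithelial receptor. Ighm, the IgM heavy chain, lay between 9.38 and 11.68 (median 10.38) in naive mice and between 14.21 and 14.58 (median 14.52) in sensitized mice, a rise of 4.05 ± 0.50 (SE, adjusted p = 4.41e-11) without overlap. Igha, the IgA heavy chain, rose by 2.12 ± 0.17 (SE) from a naive range of 11.70 to 12.48 to a sensitized range of 13.78 to 14.40, and Jchain, which joins IgM and IgA polymers, by 2.63 ± 0.26 (SE). Pigr, the epithelial receptor that carries these polymers into the airway, rose by 2.55 ± 0.20 (SE, adjusted p = 3.10e-20), from a naive range of 9.67 to 10.69 to a sensitized range of 12.21 to 12.77. Probe sets of immunoglobulin genes can share signal, so the rises of single variable genes are uncertain and not listed.

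The secretory machinery of plasma cells rose too. Derl3, which clears misfolded proteins from the endoplasmic reticulum (ER), went from a naive median of 7.37 (7.20 to 7.92) to a sensitized median of 10.76 (8.83 to 11.16). The rise of 3.08 ± 0.21 (SE, adjusted p = 2.31e-23) had no overlap, with sensitized mouse 5 lowest at 8.83 and the others at 10.47 or above. Mzb1, an IgM chaperone, rose by 3.37 ± 0.26, Eaf2, a transcription elongation factor, by 3.60 ± 0.27, and Tnfrsf17, the BCMA receptor, by 2.07 ± 0.18 (SE). The transcription factor Irf4 rose by 1.71 ± 0.23 (SE). Prdm1, the regulator of plasma cell fate, was not called (0.22 ± 0.10 SE, adjusted p = 0.0584; 0.0232 with the 16 arrays alone), and Sdc1 (syndecan 1), which lung epithelium also makes, fell by 0.20 ± 0.04 (SE).

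B cell genes shifted less: of 10 members, 5 rose (50%) and none fell, with a median of 0.39. Tnfrsf13c (BAFF receptor) rose by 0.74 ± 0.18 and Ms4a1 (CD20) by 0.55 ± 0.19 (SE). Of 7 germinal centre genes 3 rose (42.9%) and 1 fell (14.3%), with a median of 0.19. The largest was Il21, the follicular helper cytokine, at 1.54 ± 0.30 (SE). It went from a naive range of 4.13 to 4.55 to a sensitized range of 5.14 to 6.76.

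ER chaperones rose in 13 of 19 members (68.4%) and fell in none (median 0.39). Sdf2l1 rose by 1.56 ± 0.17, Pdia4, a disulfide isomerase, by 1.40 ± 0.12 and Creld2 by 1.19 ± 0.12 (SE), each with no overlap. Hspa5 (BiP), the main ER chaperone, was near 12.73 in naive mice (12.62 to 12.81) and 13.13 in sensitized mice (12.89 to 13.24), a small but separate shift of 0.39 ± 0.07 (SE). Canx (0.08) and Dnajc3 (0.07) were not called.

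The ER stress response element, CCAAT and CCACG separated by any 9 bases, is the pattern read by ATF6 and NF-Y in chaperone promoters. Promoters were at hand for 16 of the 19 ER genes, and 6 held it on either strand (37.5%): Canx, Creld2, Dnajc3, Hsp90b1, Hspa5 and Pdia6. Of 27025 genes, 0.137% held it. Of these 6, Creld2, Hsp90b1, Hspa5 and Pdia6 rose (1.19, 0.63, 0.39 and 0.54) and Canx and Dnajc3 were not called. The 130 bases before the start of 3 of the risen genes are given with the element in capitals; in Creld2 it reads on the opposite strand.
Hspa5, chr2:34771960-34772089, plus strand: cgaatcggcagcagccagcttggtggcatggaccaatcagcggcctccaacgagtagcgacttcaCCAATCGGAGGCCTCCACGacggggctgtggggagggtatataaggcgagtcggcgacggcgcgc
Pdia6, chr12:17266459-17266588, plus strand: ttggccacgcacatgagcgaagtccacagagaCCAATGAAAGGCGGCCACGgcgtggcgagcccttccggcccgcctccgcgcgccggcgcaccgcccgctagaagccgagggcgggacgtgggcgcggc
Creld2, chr15:88819516-88819645, plus strand: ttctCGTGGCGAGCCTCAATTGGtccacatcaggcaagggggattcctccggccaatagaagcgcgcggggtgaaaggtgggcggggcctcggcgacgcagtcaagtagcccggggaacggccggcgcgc
The element began 65, 98 and 126 bases before the start, in that order.

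T cell genes rose in 14 of 20 members (70%) and fell in none, with a median of 0.50. Pdcd1 (PD-1), a receptor of activated and follicular helper T cells, went from a naive range of 5.91 to 6.84 to a sensitized range of 7.86 to 8.99, a rise of 2.23 ± 0.21 (SE, adjusted p = 6.00e-16). Icos, a co-stimulator, rose by 1.22 ± 0.19, Ctla4, a checkpoint receptor, by 0.93 ± 0.22, Cd4 by 0.65 ± 0.10 and Foxp3, the regulatory T cell factor, by 0.50 ± 0.11 (SE). Cd8a was not called (-0.09 ± 0.16 SE, adjusted p = 0.684), and neither was Gata3, the Th2 factor that other lung cells also express (0.09 ± 0.10 SE, adjusted p = 0.474). Of 13 genes of natural killer and cytotoxic cells, 2 rose and 2 fell (15.4% each, beside 22.2% and 26.3% of all genes). The median of -0.06 turned to 0.02 without naive mouse 7 or sensitized mouse 4. Gzma (granzyme A) fell by 0.40 ± 0.15 and Ncr1 (NKp46) by 0.44 ± 0.19 (SE, adjusted p = 0.0206 and 0.0471), with all sensitized mice below every naive mouse in each. Without sensitized mouse 5, the lowest in both genes, the adjusted p values were 0.0571 and 0.123, and Ncr1 was also lost without naive mouse 2, 4, 5, 6, 7 or 8 or sensitized mouse 2 or 4 (adjusted p from 0.0527 to 0.0924). Klrg1, also found on activated T cells, rose by 0.72 ± 0.14 (SE).

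Antigen-presenting genes rose together. MHC class II genes rose in 10 of 10 members (median 0.52) and MHC class I genes in 8 of 10 (80%, median 0.39). Dendritic cell genes rose in 13 of 16 (81.2%), with 1 lower (6.25%, median 0.52), beside 22.2% higher and 26.3% lower among all genes. Itgax (CD11c) rose by 1.72 ± 0.17 (SE), from a naive range of 10.35 to 11.21 to a sensitized range of 11.67 to 12.93, and Batf3, a factor of cross-presenting dendritic cells, by 1.24 ± 0.22 (SE). Ciita, the class II transactivator, rose by 0.89 ± 0.12, H2-Ab1 by 0.51 ± 0.06, and Tap1, a peptide transporter, by 0.68 ± 0.14 (SE), though a second Tap1 probe set gave 0.03. H2 genes share sequence, so their probe sets may share signal. Ccr7, which guides dendritic cells out of tissue, was the member that fell, by 0.37 ± 0.14 (SE, adjusted p = 0.0247), and was lost without naive mouse 7 (0.0709) or sensitized mouse 2 (0.0546). Of 20 interferon-stimulated genes, 6 rose (30%) and 2 fell (10%), beside 22.2% and 26.3% of all genes (median 0.22). The 2 ends were Mx1 at 1.19 ± 0.20 and Ifit2 at -0.51 ± 0.11 (SE).

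**Figure D3:**
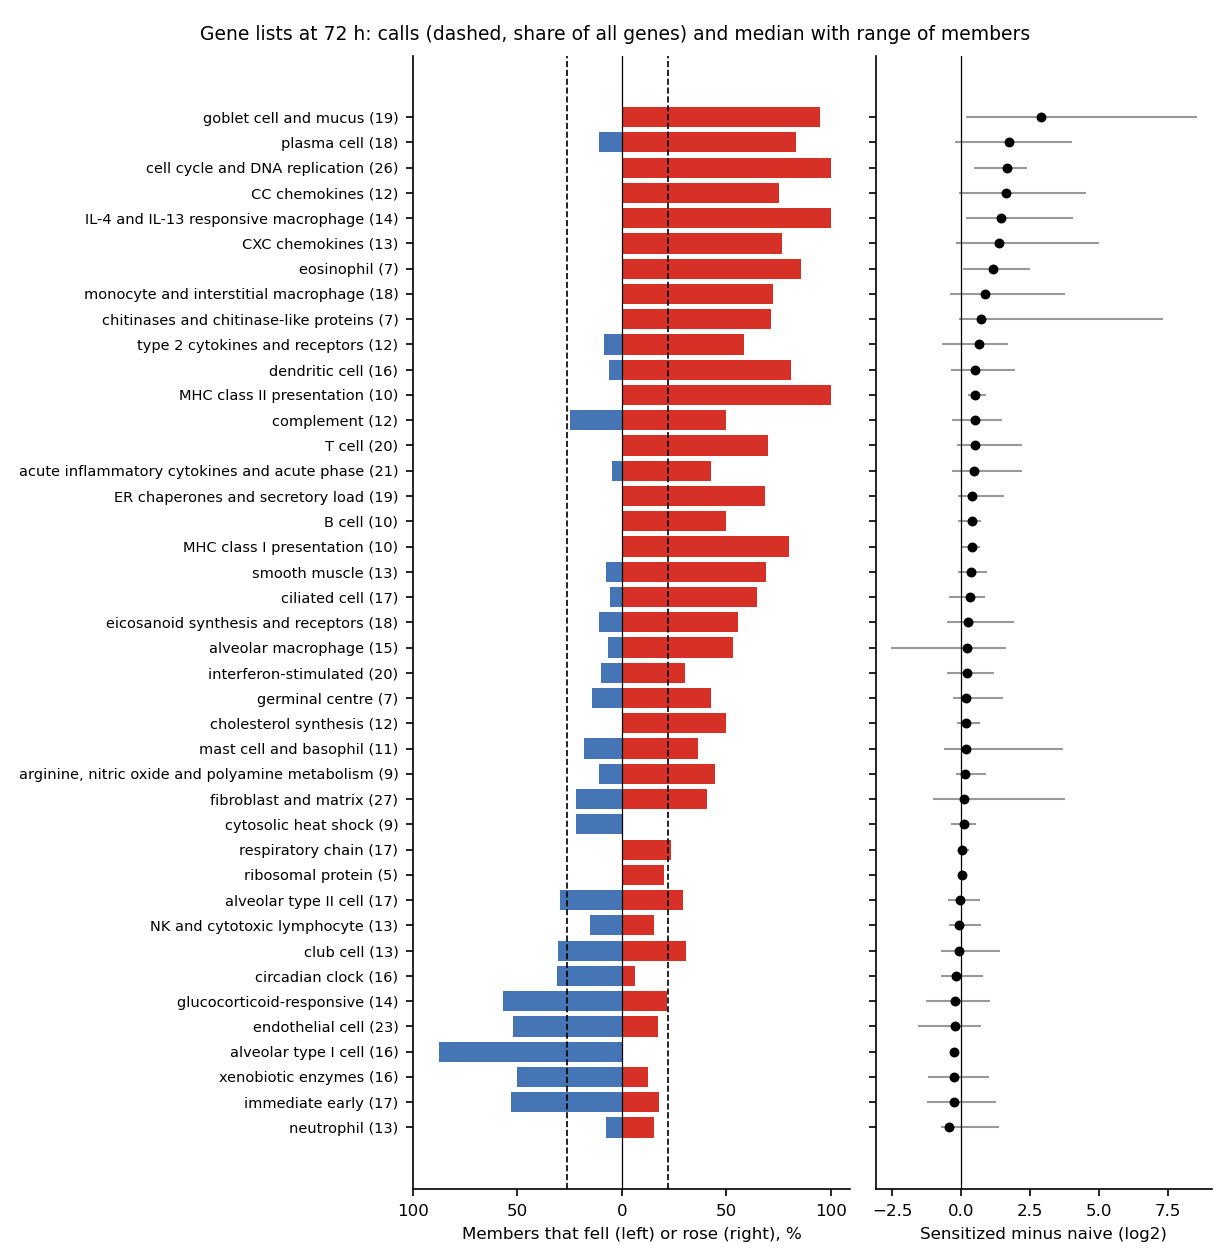
For each gene list, the share of measured members that fell or rose in sensitized lung at 72 h (left panel, percent, with dashed lines at the 26.3% lower and 22.2% higher of all genes) and the median difference with the range of members (right panel, log2). Goblet cell, cell cycle, IL-4 and IL-13 responsive macrophage and MHC class II lists lie far above the share for all genes. The alveolar type I list falls in 14 of 16 members. The lists were chosen with earlier results of these data known.

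Monocyte and interstitial macrophage genes rose in 13 of 18 members (72.2%) and fell in none (median 0.87). Mmp12, the macrophage elastase, had a naive range of 8.55 to 9.66 (median 9.12) and a sensitized range of 11.63 to 13.45 (median 13.13), a rise of 3.77 ± 0.40 (SE, adjusted p = 8.25e-14) without overlap. Trem2, a lipid receptor, rose by 1.76 ± 0.20 (SE), but a second probe set gave 0.17. Ms4a7 rose by 1.72 ± 0.23 (SE), where naive mouse 3, at 11.21, lay among the sensitized mice (10.47 to 11.74) and the other naive mice lay at 9.48 or below. Gpnmb, a glycoprotein of lipid-laden macrophages, was uneven within the sensitized group, from 9.71 to 12.39, against 9.33 to 9.73 in naive mice (1.57 ± 0.30 SE).

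Of 15 alveolar macrophage genes 8 rose (53.3%) and 1 fell (6.67%), with a median of 0.22. The member that fell was Fabp1, at -2.55 ± 0.34 (SE), the largest fall of all genes tested. Fabp4 was not called (-0.29 ± 0.38 SE, adjusted p = 0.555 by limma). Complement genes rose in 6 of 12 (50%) and fell in 3 (25%, near the 26.3% of all genes), with a median of 0.51. C1qa, the recognition chain of the classical pathway, rose by 1.5 ± 0.17 (SE), from a naive range of 10.27 to 11.52 to a sensitized range of 11.52 to 12.68, C3ar1, the C3a receptor, by 1.39 ± 0.24, and Cfi, a complement inhibitor, by 1.47 ± 0.21 (SE). Of 18 eicosanoid genes 10 rose (55.6%) and 2 fell (11.1%), with a median of 0.27. Next to Alox15, Alox12e rose by 1.3 ± 0.16 and Tbxas1, thromboxane synthase, by 1.11 ± 0.14, while Hpgd, which inactivates prostaglandins, fell by 0.51 ± 0.12 (SE).

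Genes of dividing cells rose as a whole. All 26 cell cycle and DNA replication genes rose, with a median of 1.68, beside 22.2% higher among all genes. In 24 of them all sensitized mice lay above every naive mouse, against 6.92% of all genes. Cdk1, the mitotic kinase, had a naive range of 8.53 to 8.98 (median 8.74) and a sensitized range of 9.81 to 11.26 (median 10.76), a rise of 1.96 ± 0.21 (SE, adjusted p = 2.99e-13). Ube2c, a ubiquitin-conjugating enzyme of mitotic exit, rose by 2.04 ± 0.18 and Cdc20, an activator of the anaphase-promoting complex, by 1.81 ± 0.18 (SE). Hmmr, a spindle protein, gave the largest value, 2.38 ± 0.24 (SE), but 0.63 to 0.68 by its other probe sets. Replication helicases moved less, down to 0.48 ± 0.08 (SE) for Mcm7. Which cells divided cannot be read from whole lung.

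Promoters of mitotic genes often carry the cell cycle homology region, TTTGAA, read on either strand by the DREAM and MuvB complexes. Of 22 cell cycle genes with a RefSeq promoter, 13 held it (59.1%), against 20.2% of 27025 genes. Counted only from 100 bases before to 50 after the start, 13 held it, against 9.23% of all genes. The 130 bases before the start of 4 genes are shown with the letters in capitals, which in Ube2c and Kif11 (a spindle motor, 1.85 ± 0.19 SE, other probe sets 0.64 to 1.63) read as TTCAAA on the printed strand.
Ube2c, chr2:164769799-164769928, plus strand: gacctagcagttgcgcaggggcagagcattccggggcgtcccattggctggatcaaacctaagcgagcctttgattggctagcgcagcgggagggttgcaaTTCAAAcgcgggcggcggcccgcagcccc
Cdc20, chr4:118437344-118437473, minus strand: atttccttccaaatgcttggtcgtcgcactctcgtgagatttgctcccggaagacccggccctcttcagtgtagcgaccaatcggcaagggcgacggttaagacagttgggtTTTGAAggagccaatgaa
Cdk1, chr10:69352913-69353042, minus strand: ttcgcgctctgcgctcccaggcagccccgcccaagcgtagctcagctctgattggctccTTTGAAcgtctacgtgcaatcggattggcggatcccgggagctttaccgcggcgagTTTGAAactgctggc
Kif11, chr19:37376252-37376381, plus strand: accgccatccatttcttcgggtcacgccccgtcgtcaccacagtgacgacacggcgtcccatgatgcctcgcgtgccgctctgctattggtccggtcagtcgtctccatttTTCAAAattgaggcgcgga
The match ended 24 bases before the start in Ube2c, 13 in Cdc20, 10 in Cdk1, which held a further match ending at 66, and 14 in Kif11.

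Which genes fell? Fabp1, a fatty acid-binding protein on the alveolar macrophage list, fell furthest. Its naive mice lay between 10.79 and 11.34 (median 11.08) and its sensitized mice anywhere between 6.79 and 10.80 (median 8.46), with sensitized mouse 5, at 10.80, inside the naive range. The fall was -2.55 ± 0.34 (SE, 5.85-fold lower, adjusted p = 4.43e-10). Pon1, a paraoxonase known from serum lipoproteins, ranged from 11.59 to 12.04 in naive mice and from 8.57 to 10.84 in sensitized mice. All 8 sensitized mice lay below, by -2.48 ± 0.27 (SE, adjusted p = 1.40e-13), and sensitized mouse 5 was again closest to the naive mice. Krtap17-1 (-1.95 ± 0.27 SE) and Vstm2a (-1.90 ± 0.27 SE) followed, also without overlap. Esm1, made by endothelial tip cells, fell by 1.58 ± 0.31 (SE), with naive values of 9.43 to 10.89 and sensitized values of 8.06 to 9.84.

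Alveolar type I and vascular genes made up broad, shallow decreases. Of 16 type I cell genes, 14 fell and none rose, with a median of -0.24 beside a share of 26.3% lower among all genes. Aqp5, the water channel, fell by 0.38 ± 0.07, Spock2 by 0.39 ± 0.06 and Ager by 0.16 ± 0.03 (SE), the last with all sensitized mice below every naive mouse. Of 23 endothelial genes, 12 fell (52.2%) and 4 rose (17.4%), with a median of -0.24. Kdr (VEGF receptor 2) fell by 0.52 ± 0.08, Emcn by 0.60 ± 0.13 and Apold1 by 1.03 ± 0.19 (SE). The members that rose included Selp (P-selectin, 0.71 ± 0.25 SE), which captures leukocytes on venules, and Ackr1, the venular chemokine receptor (0.57 ± 0.19 SE). T cell, dendritic cell, macrophage, plasma cell and eosinophil lists rose in the same mice, and their part in these decreases was not tested.

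Immediate early and glucocorticoid-responsive genes fell more often than they rose. Of 17 immediate early genes, 9 fell (52.9%) and 3 rose (17.6%), with a median of -0.27, beside 26.3% lower and 22.2% higher among all genes. Nr4a1 fell by 1.24 ± 0.26 (SE), from a naive range of 10.25 to 10.85 to a sensitized range of 8.85 to 9.36 in 7 sensitized mice, with sensitized mouse 5 at 10.32. Fosb fell by 1.18 ± 0.38 and Dusp1 by 0.60 ± 0.12 (SE), whereas Egr2, which IL-4 induces in macrophages, and Myc rose by 1.27 ± 0.22 and 0.93 ± 0.21 (SE). Of 14 glucocorticoid-responsive genes, 8 fell (57.1%) and 3 rose (21.4%), with a median of -0.22. Zbtb16 fell by 1.28 ± 0.36 (SE; -0.36 by a second probe set) and Per1 by 0.68 ± 0.22, while the metallothionein Mt2 rose by 0.94 ± 0.23 (SE). Of 16 clock genes 5 fell (31.2%, near the 26.3% of all genes) and 1 rose (median -0.18).

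Of 16 genes of xenobiotic metabolism, 8 fell (50%) and 2 rose (12.5%), with a median of -0.25. Cyp2e1, an ethanol-inducible cytochrome P450, fell by 1.21 ± 0.41 and Gsta3, a glutathione transferase, by 0.69 ± 0.15, while Gsto1 rose by 1.0 ± 0.11 (SE). Cidec, a lipid droplet protein of fat cells, fell by 1.22 ± 0.33 (SE). Adipoq, the defining fat cell gene, ranged from 7.60 to 11.10 in naive and from 6.98 to 9.57 in sensitized mice and was not called (-1.47 ± 0.79 SE, adjusted p = 0.114). It passed with the 16 arrays alone (adjusted p = 0.0272) and, at -2.01, without naive mice 3 and 7 and sensitized mouse 5 (0.0479). Of 9 fat cell genes 2 fell (22.2%, near the 26.3% of all genes) and none rose. The mean level of the 9 genes ranged from 7.61 to 10.18 in naive and from 7.52 to 8.94 in sensitized mice. The part of this fat signal in the falls of Cidec and Cyp2e1, which fat also makes, was not tested.

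Among other epithelial lists, ciliated cell genes rose in 11 of 17 (64.7%) and fell in 1 (5.88%), with a median of 0.31. They were led by Rsph1, a radial spoke protein (0.88 ± 0.13 SE), and the ciliogenesis factor Foxj1 (0.61 ± 0.16 SE), while Tppp3 fell by 0.42 ± 0.10 (SE). Club cell genes rose in 4 of 13 and fell in 4 (30.8% each, median -0.06), near the 22.2% and 26.3% of all genes: Scgb3a2 fell by 0.45 ± 0.10 (SE) and Scgb1a1 was not called (-0.05 ± 0.03 SE, adjusted p = 0.0887). Scgb3a1 rose by 0.95 ± 0.37 (SE), which was lost without naive mouse 3 (0.75, adjusted p = 0.0873), without naive mouse 7 (0.62, 0.149) and with the 16 arrays alone (0.0543), and was 0.27 without both mice and sensitized mouse 5 (0.585). Type II cell genes also stood near the shares of all genes, with 5 of 17 higher and 5 lower (29.4% each, median -0.03), and with Sftpd, a surfactant collectin, higher by 0.28 ± 0.04 and Sftpb lower by 0.31 ± 0.06 (SE).

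Smooth muscle and matrix genes shifted upward in part. Smooth muscle genes rose in 9 of 13 (69.2%) and fell in 1 (7.69%), with a median of 0.37. Acta2 (smooth muscle actin) rose by 0.47 ± 0.06 and Myocd, the regulator of the smooth muscle program, by 0.94 ± 0.14 (SE). Of 27 fibroblast and matrix genes, 11 rose (40.7%) and 6 fell (22.2%, near the 26.3% of all genes), with a median of 0.12. Col1a1 rose by 0.19 ± 0.07 (SE), a call that median centring of the arrays ended (adjusted p = 0.0510), as did the mean over its probe sets (0.0789). The proteoglycans Lum and Dcn fell by 1.02 ± 0.25 and 0.77 ± 0.18 (SE), each with all sensitized mice below every naive mouse, although a second Dcn probe set gave -0.20. Postn (periostin), a matrix protein induced by IL-13, was not called (0.00 ± 0.05 SE, adjusted p = 0.988), and its 8 sensitized mice, from 12.83 to 13.33, spanned the naive range of 13.07 to 13.19.

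Housekeeping lists were close to flat. Of 17 respiratory chain genes 4 rose (23.5%, near the 22.2% of all genes) and none fell (median 0.05). Of 5 ribosomal protein genes 1 rose (20%, median 0.04, and -0.02 with quantile normalization). Of 9 cytosolic heat shock genes 2 fell (22.2%, near the 26.3% of all genes, median 0.11). Cholesterol synthesis genes shifted more: 6 of 12 rose (50%) and none fell (median 0.19), with Mvd highest at 0.67 ± 0.11 (SE).

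How evenly did the 8 sensitized mice respond? Averaged over the list, goblet cell genes lay between 10.46 and 11.18 in sensitized mice and between 7.33 and 8.24 in naive mice. The eosinophil list ran from 7.58 to 9.36 in sensitized mice against 7.31 to 8.14 in naive mice, and its lowest sensitized value, that of mouse 5, lay inside the naive range. Mouse 5 also had the lowest goblet cell mean, 10.46, but beside 10.47 in sensitized mouse 1. Fitted without it and naive mice 3 and 7, 6304 genes passed, 2975 higher and 3329 lower, so the count at 72 h did not rest on these 3 arrays.

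**Figure D4:**
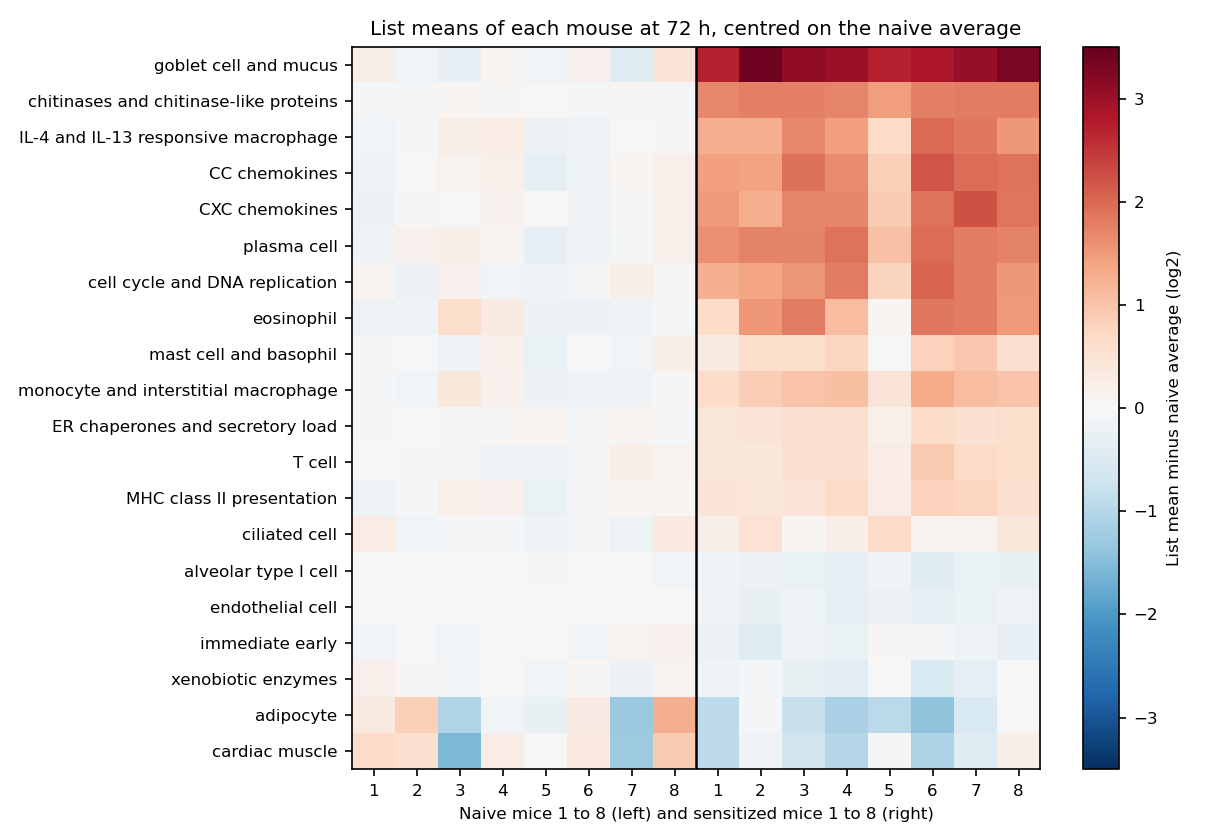
Mean log2 level of 20 gene lists (rows) in each of the 16 mice (columns), shown as the difference from the naive average (colour, log2 units). Sensitized mouse 5 is paler than its group in the eosinophil, plasma cell and mast cell rows, while in the goblet cell row it equals sensitized mouse 1 to within 0.01.

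Whether the sensitized minus naive difference at 72 h departed from other times was tested as its change between times, in the same limma fit. No gene passed against both 48 h and 96 h. Against 48 h, 14 of 13053 genes changed (0.107%), 11 with a higher (0.0843%) and 3 with a lower (0.023%) difference at 72 h. Derl3 rose furthest, from a difference of 1.69 ± 0.22 at 48 h to 3.08 ± 0.21 at 72 h (change 1.39 ± 0.31 SE, adjusted p = 0.0200) and stood at 2.87 at 96 h. Tnfrsf17 went from 0.88 to 2.07 (change 1.19 ± 0.26 SE), Slamf7, a receptor of plasma cells and other leukocytes, from 0.59 to 1.74 (1.15 ± 0.22 SE), Pdia4 from 0.58 to 1.40 (0.83 ± 0.18 SE) and Edem2, an ER mannosidase-like protein, from 0.16 to 0.60 (adjusted p up to 0.0436 over the 14). Lax1, an adaptor of lymphocyte receptors, Slc16a6, Prss16, Zcchc18, Arid3a, a B lineage factor, and Pon3 made up the rest of the 11.

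The 3 genes with a lower difference at 72 h shifted little. Phf13 went from 0.03 to -0.34, Ss18l1 from 0.03 to -0.36 and Srf, the serum response factor, from 0.06 to -0.26 (changes of -0.37, -0.38 and -0.33, adjusted p = 0.0050, 0.0110 and 0.0175), and a second Srf probe set gave 0.04 at 72 h. The count against 48 h turned on single mice: it was 4 without sensitized mouse 6, 7 without sensitized mouse 4, 22 without sensitized mouse 1, 31 without naive mouse 3 and 105 without sensitized mouse 5. Slamf7, Phf13, Srf and Ss18l1 passed in all 16 of these fits, Edem2 and Pdia4 in 15, Derl3 and Tnfrsf17 in 14, and Slc16a6 in 6.

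Against 96 h, 1 gene changed (0.00766%): Nr1d1 (REV-ERB alpha), a clock repressor, whose difference was -0.72 at 72 h and 0.41 at 96 h (change -1.13 ± 0.23 SE, adjusted p = 0.0341). It passed in 9 of the 16 fits without 1 mouse, and no gene passed without naive mouse 1, 3, 4, 7 or 8 or sensitized mouse 4 or 6, while 2 or 3 passed without naive mouse 5 or 6 or sensitized mouse 5. At 72 h it lay between 10.55 and 11.57 in naive and between 10.03 and 11.04 in sensitized mice. At an unadjusted p under 0.05, 1324 genes changed against 96 h and 1267 against 48 h, so failure to pass does not show that the times were alike.

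Against the groups labelled 0 h, 332 genes changed (2.54%), 193 upward (1.48%) and 139 downward (1.06%). The count was 140 without sensitized mouse 6, 211 without sensitized mouse 4 and 702 without sensitized mouse 5. The largest were Bcat1, a branched-chain amino acid enzyme, whose difference went from 1.09 at 0 h to 3.86 at 72 h (change 2.77 ± 0.54 SE, adjusted p = 0.000783), and Ada, adenosine deaminase, which went from -0.87 to 1.87 (2.74, adjusted p = 0.0335). Mmp13, a collagenase, changed by 2.54, Derl3 by 2.35 ± 0.30 (adjusted p = 6.77e-08), Eaf2 by 2.23, Mcpt1 by 2.02, Ccr3 by 2.01, Mzb1 by 1.90, Gpnmb by 1.76 and Igha by 1.74 ± 0.24 (SE, adjusted p = 2.12e-07). Of the 18 plasma cell genes 10 changed against 0 h, all upward, as did 11 of 19 ER chaperone and 13 of 26 cell cycle genes, beside 1.48% of all genes. Of the 12 with the largest change, the other 2 were immunoglobulin kappa variable genes (2.53 and 1.85), whose probe sets can share signal. Leaving out each of the 16 mice, the second of these passed in 4 fits and the first, Ada and Ccr3 in 13 each, Mmp13 in 15 and the other 7 in 16. Goblet cell genes differed at 0 h as well, with a list median of 1.87 at 0 h, 2.41 at 48 h, 2.90 at 72 h and 3.08 at 96 h, and none of the 19 changed against 48 h.

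**Figure D5:**
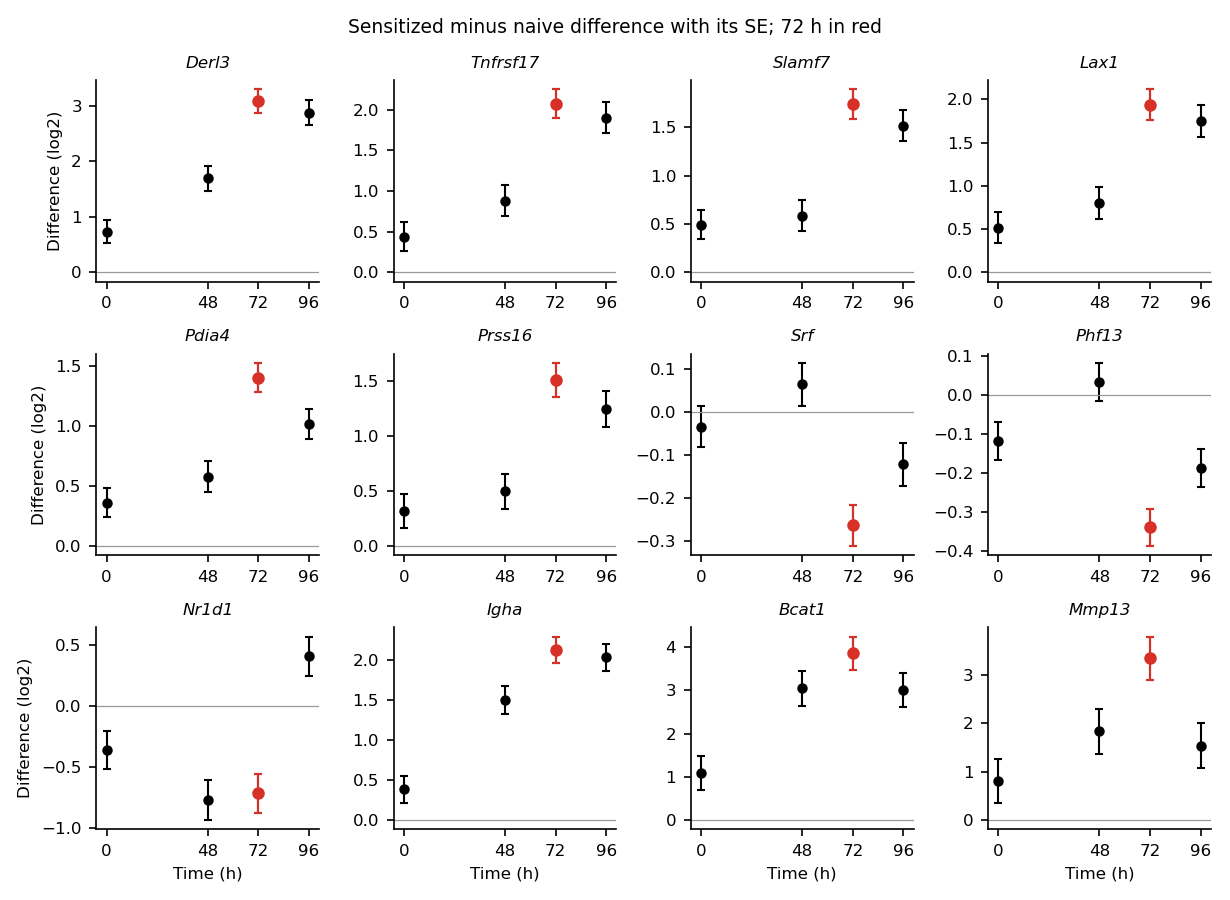
Difference between sensitized and naive lung (y axis, log2, points with SE bars from the limma fit) at 0, 48, 72 and 96 h (x axis) for 12 genes whose difference changed between 72 h and another time. Derl3 rises from 1.69 at 48 h to 3.08 at 72 h, and Nr1d1 is below 0 at 72 h and above 0 at 96 h.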

How the data were processed

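Lung RNA of single mice was hybridised to Affymetrix 3' expression arrays after in vitro transcription labelling, per the labels' protocols. The authors deposited log2 intensities per probe set. The submitters' processing notes name RMA; its version and any filter on probe sets were not given in the sources used here. RMA background-corrects, quantile-normalizes and summarizes probes, which holds array medians nearly equal and compresses changes at both ends of the range.

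Of 25697 probe sets, 10 were labelling or spike controls, 22478 had 1 gene symbol, 259 several and 2950 none in the platform annotation, which can be old. Where a gene had several probe sets (5672 of 13053 genes), the one with the highest mean over the 123 arrays stood for it. Groups came from the labels, and naive and sensitized mice were numbered in accession order. The fit used limma 3.58.1 in R 4.3.3 with 1 mean for each of 16 groups (107 residual degrees of freedom), the contrast of sensitized minus naive at 72 h and the changes of that contrast against 48, 96 and 0 h. P-values were Benjamini-Hochberg adjusted over 13053 genes at 0.05, and SE are limma's. Promoters came from RefSeq GRCm38.p6. On simulated data with the same groups, 87 of 100 genes changed by 0.5 and 100 of 100 changed by 1 were recovered. There were 12 false calls among the genes left unchanged, of 13053 simulated. The simulation drew independent noise for each gene, changed few genes and held no mouse that stood apart. Its rates therefore need not carry over to these data. The number of arrays limits the precision.

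Genes were named from the 20 highest and 15 lowest at 72 h. They also came from up to 6 members with the largest difference in each of 48 lists. Further sources were up to 12 genes with the largest change against each other time and a fixed panel. The 10 largest differences with overlapping groups were another source. Other list members were named beside their list's count. Not every gene that met this rule is named in the text. The members, lists and naming rule were chosen with earlier results of these data known. Alternatives tried were the arrays in the fit, array weights, the spread prior, normalization, probe set choice, a filter on dim genes, arrays with neighbouring tissue, the test and threshold, the motif window and leaving out each mouse.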

Additional observations from a re-analysis of the deposited data

Results flagged for a closer look

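Of 390 groups of 8 mice, 1 for each named gene and arm, 44 held a mouse whose gap to its nearest neighbour was too large a share of the group's range, where chance alone gives about 1 in 20. In 29 of them it was sensitized mouse 5. Sensitized mouse 5 lay below its group, in log2 intensity, in Alox15 (8.59, next 10.18), Ccl11 (9.26, next 11.43), Ccl8 (12.02, next 12.99), Cd209e (7.81, next 8.82), Chia1 (13.81, next 14.14), Chil1 (13.78, next 13.93), Col1a1 (13.1, next 13.27) and Derl3 (8.83, next 10.47). The same mouse was lowest in Eaf2 (10.29, next 11.27), Emcn (10.6, next 11.04), Fxyd4 (9.37, next 10.88), Hspa5 (12.89, next 13.08), Igha (13.78, next 14.27), Ighm (14.21, next 14.5), Il13 (6.83, next 7.96) and Il13ra2 (6.28, next 7.38). It was also lowest in Irf4 (10.9, next 11.95), Jchain (13.35, next 13.82), Lax1 (10.05, next 10.86), Mzb1 (11.85, next 12.87), Pon3 (11.5, next 11.78), Postn (12.83, next 13.1), Slamf7 (8.36, next 9.26) and Slc26a4 (12.21, next 13.35). The last such gene was Zcchc18 (6.42, next 7.13). It was the highest of its group in Dusp1 (13.35, next 12.9), Krtap17-1 (8.05, next 7.22), Nr4a1 (10.32, next 9.36) and Pon1 (10.84, next 9.63), all of which fell in sensitized lung.

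Naive mouse 3 lay above the other naive mice in Adgre1 (12.53, next 10.51), Batf3 (9.54, next 8.65), C3ar1 (9.95, next 8.55), Ctbs (9.42, next 9.17), Il10 (7.51, next 5.08), Ms4a7 (11.21, next 9.48) and Tnf (8.36, next 7.59), which include macrophage genes. Naive mouse 1 was lowest in Cxcl1 (7.19, next 7.95), sensitized mouse 3 was lowest in Foxp3 (7.82, next 8.13) and sensitized mouse 2 was highest in Gsto1 (13.43, next 13.11). Naive mouse 3 was lowest in Il33 (11.36, next 11.59), naive mouse 4 was highest in Mcpt1 (4.83, next 4.41) and naive mouse 7 was highest in Pdcd1 (6.84, next 6.25). Naive mouse 8 was lowest in Postn (13.07, next 13.14) and naive mouse 8 was highest in Prg2 (6.15, next 5.69).

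The sensitized minus naive difference changed between times, by limma's test of the change itself, in genes named in the report. Against 48 h the log2 change of the difference was upward in Arid3a (0.44), Derl3 (1.39), Edem2 (0.44), Lax1 (1.14), Pdia4 (0.83), Pon3 (0.32), Prss16 (1.01), Slamf7 (1.15), Slc16a6 (1.04), Tnfrsf17 (1.19) and Zcchc18 (0.76). It was downward in Phf13 (-0.37), Srf (-0.33) and Ss18l1 (-0.38). Against 96 h it was Nr1d1 (-1.13). Against 0 h it was upward in Bcat1 (2.77), Ada (2.74), Mmp13 (2.54), Derl3 (2.35), Eaf2 (2.23), Mcpt1 (2.02), Ccr3 (2.01), Mzb1 (1.9), Gpnmb (1.76) and Igha (1.74), and in 2 immunoglobulin kappa variable genes (2.53 and 1.85).

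Outside the named genes, 3209 probe sets paired with no single gene name were fitted in the same way. Of these, 1420 (44.3%) passed the threshold, 370 higher and 1050 lower in sensitized lung at 72 h. The 2 largest differences were 5.31 ± 0.45 and 5.18 ± 0.78 (SE).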

How the results depend on the processing

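The count of genes that differed at 72 h (6335) stayed within 1.5 times under the other fits and tests, from 4752 at an adjusted p under 0.01 to 7515 with array weights, apart from the rule that also asked for a log2 difference of at least 1 (379). The higher share of the calls was 45.8%, 41.2% with quantile normalization and 37.5% with median centring. Over all alternatives, named genes kept their side of the threshold in 4754 recomputed values, lost it in 30, gained it in 43 and turned in 1. That 1 was Cxcl12, which went from -0.18 to 0.262 when its probe sets, which disagree, were averaged. A turn was counted only where the main fit or the alternative called the gene. Sign changes of genes called in neither fit therefore stand among the 4754. List counts and medians held in 3406 recomputed values, counts went down by over 1.5 times in 68 and up in 76, and medians moved in 50. The medians of the germinal centre, natural killer, mast cell, ribosomal protein and squamous lists changed sign under at least 1 alternative, all from main values between -0.06 and 0.19.

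Counts of genes whose difference changed between times were less stable. Against 48 h (14 genes), 574 passed with array weights, 28 with the mean over probe sets, 24 with median centring and 127 without the 3 arrays that stand apart; leaving out 1 mouse gave 4 to 105. Against 96 h (1 gene), 376 passed with array weights, 0 with quantile normalization and 3 without the 3 arrays; leaving out 1 mouse gave 0 to 3. Against 0 h (332 genes), 3180 passed with array weights and 651 without the 3 arrays; leaving out 1 mouse gave 140 to 702. All 14 genes against 48 h passed without the 3 arrays as well, while the gene against 96 h did not. The cause was not tested.

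RNA quality was compared by the array's control probe sets. The difference in the log2 ratio of 3' to 5' signal was -0.06 for actin and 0.66 for pyruvate carboxylase (two-sided exact permutation p = 0.239 and 0.000466, n = 8 each). The planned GAPDH alternative was not run, since no GAPDH control was used here. In the 150 bases nearest the start, 0 goblet cell and 2 ER promoters held their motif, against 1 and 6. The fits without the 3 arrays and the pyruvate carboxylase ratio were chosen after the data were seen. No paired analysis was possible because each array came from a separate animal and the replicate numbers only follow accession order. Array intensities saturate near the top of the range and dim probe sets compress changes, so large fold changes are uncertain in size.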

Other observations

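Genes of arginine, nitric oxide and polyamine metabolism, which type 2 macrophages use, rose in 4 of 9 measured members (44.4%) and fell in 1 (11.1%). The median was 0.13. Slc7a2, an arginine transporter, rose by 0.90 and Arg2, the mitochondrial arginase, by 0.64. Nos2, the inducible nitric oxide synthase, was not called (-0.09). Arg1 was not analysed here.

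Few genes of tissues that lie next to the lung were called. None of 13 skeletal muscle, 12 heart muscle and 12 squamous epithelium genes was called, with medians of -0.05, -0.54 and 0.04. Of 9 fat cell genes 2 fell (22.2%, median -0.93) and of 9 mesothelium genes 3 fell (33.3%, median -0.21), beside 26.3% of all genes. Of 6 thymus genes 1 rose and 1 fell (16.7% each, median 0.21), and of 2 red blood cell genes 1 fell (median -0.55).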
